A study of Homo sapiens with 21 samples.

Results

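The comparison described here is the change of the mir-429 effect between 48 and 144 h after transfection. The effect at a time is the mean of the mir-429 arrays minus the mean of the control arrays on the log2 scale, and the change is the effect at 144 h minus the effect at 48 h. It was formed from 12 of the 21 arrays of the series, chosen by the treatment and time in their titles, and comprises 4 groups of 3 arrays each: mir-429 at 144 h, control miRNA at 144 h, mir-429 at 48 h and control miRNA at 48 h. A positive value, called an upward change, means that a gene stood higher relative to control at 144 h than it did at 48 h. A negative value, a downward change, means the reverse.

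The series followed mRNA levels in HEY cells, an established human ovarian cancer line grown in RPMI-1640 with 10% FBS and an antibiotic-antimycotic mix. Growing cells received either mir-429 or a negative control microRNA, both from Ambion and delivered with the lipid carrier Lipofectamine 2000, so the controls carry the same carrier and an RNA of their own. The control arm is named "synthetic mirna" in the sample titles and was taken as the negative control of the design. RNA was isolated on RNeasy columns, amplified and biotin labelled by a method that primes at the 3' end, and hybridised to Affymetrix arrays. All groups are of 1 cell line, and neither the share of cells transfected nor the amount of mir-429 left at each time is stated in the labels. Replicates are labelled biological, but how cultures were kept apart is not said, and p-values here reflect array-to-array spread, which may be technical.

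As background, mir-429 belongs to the miR-200 family of microRNAs, which bind messenger RNAs through a short seed at their 5' end and lower the level or translation of those messengers. The best known targets are ZEB1 and ZEB2, transcription factors that repress epithelial genes and, in turn, the miR-200 genes themselves. Carcinoma cells of mesenchymal character are known for high ZEB and low miR-200 levels. The sequence of mir-429 is shown because its seed defines which messengers it can bind, and 4 relatives are shown for comparison. The mature sequences are from RefSeq (GRCh38.p14), 5' to 3', with the seed, bases 2 to 8, in capitals.

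hsa-miR-429: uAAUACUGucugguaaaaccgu

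hsa-miR-200b-3p: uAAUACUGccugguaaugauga

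hsa-miR-200c-3p: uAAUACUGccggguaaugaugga

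hsa-miR-200a-3p: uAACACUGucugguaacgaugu

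hsa-miR-141-3p: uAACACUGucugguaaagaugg

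The mature mir-429 lies at chr1:1169055-1169076 on the plus strand, close to miR-200b-3p at chr1:1167160-1167181. Its seed AAUACUG is shared with miR-200b-3p and miR-200c-3p, while miR-200a-3p and miR-141-3p carry AACACUG.

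Before the results, the state of the arrays is given, because it moved with the contrast. The 3' minus 5' signal of the control transcripts GAPDH and ACTB, a log2 measure of how far the 5' end of a transcript was lost, averaged 3.35 ± 0.13 with mir-429 and 3.90 ± 0.47 with control at 144 h (SD, n = 3 each). At 48 h it averaged 8.55 ± 0.15 with mir-429 and 7.83 ± 0.62 with control (SD, n = 3 each). Its own change was -1.28 (exact permutation test over 400 arrangements of the arrays within each time, two-sided p = 0.025, the smallest possible being 0.005). The array median was 3.95 on mir-429 144 h replicate 1 and 4.14 to 4.26 on the other 11 arrays. Between 2 arrays of a group, the difference over genes had an SD of 0.269 to 0.330 for mir-429 at 144 h and 0.200 to 0.255 for control at 144 h. The same SD was 0.339 to 0.361 for mir-429 at 48 h and 0.392 to 0.472 for control at 48 h. Of 14 ovarian carcinoma markers 9 could be tested and 0 changed, too few genes to set against the 9.47% of all genes. The effect itself passed the threshold as higher for 4 and lower for 0 of the 9 at 48 h (beside 9.32% and 11.3% of all genes). At 144 h it passed as higher for 1 and lower for 2 (beside 1.48% and 4.37%). The transcription factor PAX8, 1 of the 9, was at 11.43 and 11.15 with mir-429 and control at 144 h and 10.88 and 10.87 at 48 h. In each group 8 of the 14 markers were above the array median on all 3 arrays, while EPCAM was above it on 0 of the 21. Leukocyte markers were dim, with 5 of 27 tested and 0 changed, again too few to compare, and their defining PTPRC and CD3E lay below the median of every array. Their summed level was 88.1 to 91.4 and 87.5 to 89.8 for mir-429 and control at 144 h, and 83.1 to 85.9 and 81.5 to 86.7 at 48 h. Of 17 endothelial markers tested, 3 changed upward (17.6%, beside 3.84% of all genes). They were CD93 (1.08, and -0.16 with dim values raised to the array median), TIE1 (0.97) and CDH5 (0.78). VWF was above the array median on 1 of the 21 arrays, but other members were brighter. Of the 25 markers, 14 and 15 were above the median on all 3 arrays of mir-429 and control at 144 h. At 48 h the counts were 12 and 11. The summed level of that list was 137.7 to 143.9 and 142.2 to 142.9 for mir-429 and control at 144 h, and 130.2 to 131.9 and 133.7 to 139.0 at 48 h. Of 6 fibroblast markers tested, the protease FAP changed upward (16.7% of those tested, too few to compare). DCN was above the array median on 1 of the 21 arrays and LUM on 0, but other members were brighter. Of the 13 markers, 6 were above the median on all 3 arrays in each group but control at 48 h, where 4 were. Their sum was 60.6 to 61.8 and 62.6 to 63.9 for mir-429 and control at 144 h, and 57.6 to 59.9 and 60.2 to 62.2 at 48 h. The part of these differences in the results was not tested beyond the settings named below.

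Across the transcriptome, most effects that changed were larger in size at 48 h than at 144 h. Of 12879 genes tested, 1219 changed their effect (limma, Benjamini-Hochberg adjusted p under 0.05), which is 9.47% of all. Upward changes numbered 495 (3.84%) and downward changes 724 (5.62%), and 158 of the upward and 243 of the downward ones were of at least 1 on the log2 scale. The genes with an upward change had a median effect of 0.12 at 144 h and -0.68 at 48 h, and the size of the effect was larger at 144 h for 64 of them and larger at 48 h for 431. Those with a downward change had a median effect of -0.23 at 144 h and 0.59 at 48 h, and the size was larger at 144 h for 194 and larger at 48 h for 530. These medians describe genes chosen by the change itself. Effects that passed the threshold at both times with opposite signs were found for 59 genes, 20 moving upward and 39 downward.

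A change of the effect can come from either arm. Among upward genes the median difference between 144 and 48 h was 0.80 within mir-429 cells and -0.07 within control cells. Among downward genes it was -0.36 within mir-429 cells and 0.51 within control cells. Over all genes these differences were 0.13 and 0.18. Differences within an arm also hold everything else that separated the 144 h from the 48 h arrays, including the 5' signal. With the 3' minus 5' signal as a covariate 792 genes changed, 345 upward and 447 downward, and 662 of them were among the 1219. The median size of the 1219 changes was 0.86 with that covariate and 0.84 without it, and their median SE 0.23 and 0.19. The share of upward changes was 40.6% as deposited, 51.5% after cyclic loess scaling (670 upward, 631 downward) and 49.6% after quantile scaling, so the excess of downward changes depended on scaling. In bulk arrays a lower level in every cell and a level lost from some cells cannot be told apart.

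**Figure D1:**
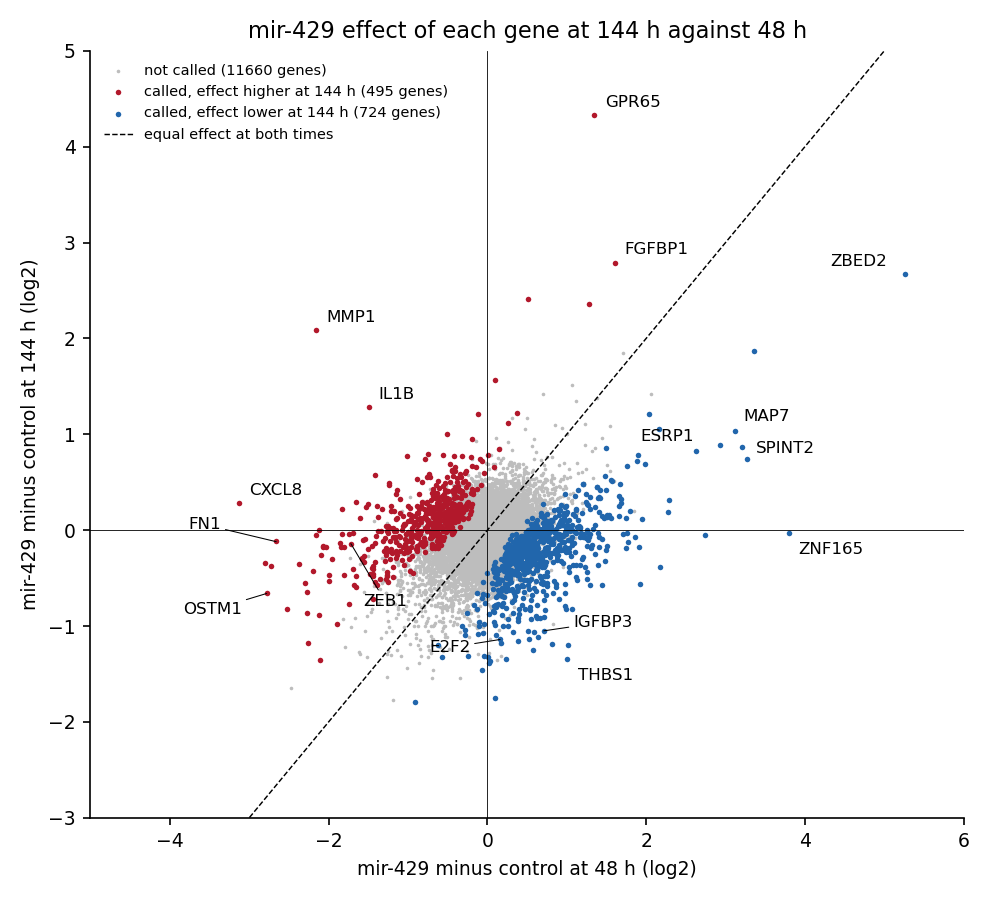
Effect of mir-429 on each of the 12879 genes tested at 144 h (vertical axis, log2) against 48 h (horizontal axis, log2), each effect a difference of means of 3 arrays. Red points are the 495 genes with an upward change, blue points the 724 with a downward change and grey points the rest; most coloured points lie farther from 0 on the 48 h axis than on the 144 h axis, and GPR65, FGFBP1 and MMP1 are high at 144 h.

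Among transcripts described as targets of the miR-200 family, changes were mostly upward, with mir-429 low at 48 h and near control at 144 h in the genes that changed most. Of 60 such genes 55 were tested, and 13 changed upward and 2 downward (23.6% and 3.64%, beside 3.84% and 5.62% of all genes). The median effect over the 55 was -0.09 at 144 h and -0.36 at 48 h, and the median change 0.31, beside -0.03 over all genes. The effect itself passed the threshold as lower for 1 member at 144 h (beside 4.37% of all genes) and for 22 at 48 h (beside 11.3%). With the 3' minus 5' covariate 8 members changed upward and 2 downward, with a median change of 0.20.

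The repressor of epithelial genes ZEB1 read 10.51, 10.53 and 10.32 in mir-429 cells and 10.56, 10.67 and 10.56 in control cells at 144 h, and 9.30, 9.14 and 9.28 in mir-429 cells and 10.91, 11.16 and 10.79 in control cells at 48 h. The 3 mir-429 arrays at 48 h lay below all other 9, and at 144 h the mir-429 arrays lay just below the control arrays. Its effect changed by 1.57 ± 0.21 (adjusted p = 9.39e-05), with -0.14 at 144 h and -1.72 at 48 h. With mir-429 at 144 h the arrays gave ZEB2, its relative, values of 7.80, 8.15 and 7.58 and the control arrays 8.23, 8.25 and 8.06, and at 48 h the mir-429 arrays gave 6.76, 6.44 and 6.58 and the control arrays 7.77, 7.79 and 7.59. Its values overlapped between arms at 144 h and were apart at 48 h. The change of ZEB2 was 0.79 ± 0.26 and missed the threshold (adjusted p = 0.0604), and it passed under 6 of the 23 alternative settings, among them the fit of these 12 arrays alone (adjusted p = 0.041) and leaving out mir-429 144 h replicate 3 (0.92, adjusted p = 0.0395).

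Matrix genes showed the largest changes of the list. For fibronectin (FN1), an adhesive matrix protein, the 144 h values were 11.46, 11.38 and 11.59 with mir-429 and 11.63, 11.58 and 11.58 with control, and the 48 h values were 9.93, 9.54 and 9.87 with mir-429 and 12.42, 12.44 and 12.48 with control. Here mir-429 arrays at 48 h were lowest and control arrays at 48 h highest, and the arms overlapped at 144 h. The effect was -0.12 at 144 h and -2.66 at 48 h, a change of 2.55 ± 0.17 (adjusted p = 3.58e-08). Over its 5 probe sets above the array median the change was between 0.14 and 2.71. LOX, the lysyl oxidase that cross-links collagen, read 6.92, 6.84 and 6.76 in mir-429 cells and 7.23, 7.31 and 7.11 in control cells at 144 h, and 5.25, 5.38 and 5.44 in mir-429 cells and 8.0, 8.19 and 8.08 in control cells at 48 h. The order of the groups was the same as for FN1, but at 144 h all mir-429 arrays still lay below all control arrays. With effects of -0.37 at 144 h and -2.73 at 48 h, LOX changed by 2.35 ± 0.19 (adjusted p = 3.59e-07). Its 2 probe sets above the array median gave 0.17 and 2.35, and the average over all its probe sets 1.01.

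WIPF1 binds WASP, which starts actin branching, and it changed within the mir-429 arm. At 144 h the mir-429 arrays gave WIPF1 values of 8.33, 8.33 and 8.31 and the control arrays 8.55, 8.60 and 8.31, and at 48 h the mir-429 arrays gave 6.27, 6.47 and 6.49 and the control arrays 8.41, 8.58 and 8.46. The 3 mir-429 arrays at 48 h lay below the other 9, which were close to each other. This gave effects of -0.17 at 144 h and -2.08 at 48 h and a change of 1.91 ± 0.18 (adjusted p = 2.38e-06). Its 4 probe sets ranged between 0.39 and 1.91, and their average gave 0.90. Between 144 and 48 h WIPF1 differed by 1.92 in mir-429 cells and by 0.01 in control cells. PPM1F, a phosphatase that acts on signalling kinases, read 8.11, 7.95 and 8.21 in mir-429 cells and 8.01, 7.94 and 8.40 in control cells at 144 h, and 5.85, 5.83 and 5.87 in mir-429 cells and 7.65, 7.30 and 7.65 in control cells at 48 h. The mir-429 arrays at 48 h were again below all others, and the arms overlapped at 144 h. PPM1F changed its effect by 1.66 ± 0.20 (adjusted p = 2.83e-05), at -0.03 at 144 h and -1.69 at 48 h, and by 0.76 with its probe sets averaged. For SEC23A, a coat protein of secretory vesicles, the 144 h values were 10.40, 10.30 and 10.27 with mir-429 and 10.27, 10.32 and 10.30 with control, and the 48 h values were 9.76, 9.45 and 9.43 with mir-429 and 10.74, 11.08 and 10.51 with control. Its values overlapped between arms at 144 h and not at 48 h. The effect was 0.03 at 144 h and -1.23 at 48 h, a change of 1.26 ± 0.25 (adjusted p = 0.00342).

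The other upward targets had smaller changes. They were the adaptor subunit AP1S2 (1.05), the actin-severing CFL2 (0.81), the membrane-actin linker MSN (0.80), the phospholipase PLCG1 (0.79), the NF-kB activating kinase IKBKB (0.73), the Notch coactivator MAML2 (0.56) and the metalloproteinase inhibitor TIMP2 (0.48). For MSN the call was lost when its probe sets were averaged (0.34, adjusted p = 0.591). The 2 downward members were the metalloprotease ADAM12, at -0.78 at 144 h and 0.10 at 48 h, and the receptor phosphatase PTPRD, at -0.13 at 144 h and 1.09 at 48 h.

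**Figure D2:**
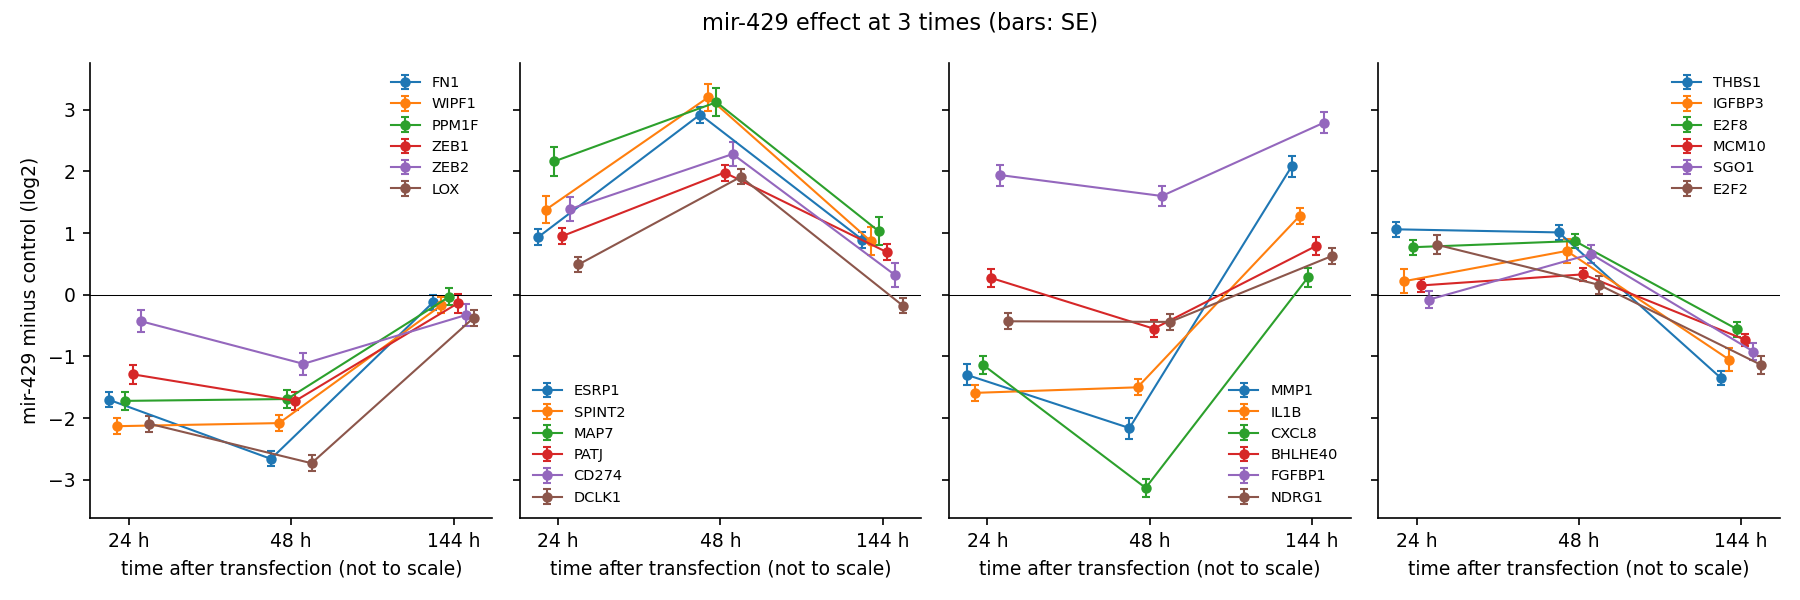
Effect of mir-429 (mir-429 minus control, log2, points with SE bars, 3 arrays per arm) at 24, 48 and 144 h for 24 genes in 4 panels. The panels show targets that were low at 48 h and near 0 at 144 h, epithelial and other genes that were high at 48 h, genes whose effect was higher at 144 h, and genes whose effect was lower at 144 h; the time axis is not to scale.

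Among epithelial genes changes were mostly downward. As fitted, mir-429 was above control at both times but by less at 144 h in SPINT2, MAP7, ESRP1, CDS1, PATJ, PKP3 and DSP. In CGN and MYO5B it was above control at 48 h and near it at 144 h (-0.08 and -0.07). GRHL1 was below the array median in both arms at 144 h. Of 61 such genes 55 had a probe set and 30 could be tested, and 10 changed downward and 2 upward (33.3% and 6.67%, beside 5.62% and 3.84% of all genes). The median effect over the 30 was 0.24 at 144 h and 0.55 at 48 h, and the effect passed as higher for 8 of them at 144 h (beside 1.48% of all genes) and for 14 at 48 h (beside 9.32%). A gene dim in other groups could enter the test through mir-429 arrays alone, so these counts do not stand for the whole list. The classical markers CDH1 and EPCAM were among those too dim to test, with no array of the 12 above its median.

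ESRP1, which directs epithelial splicing, read 7.56, 7.06 and 7.17 in mir-429 cells and 6.39, 6.38 and 6.34 in control cells at 144 h, and 8.29, 8.16 and 8.02 in mir-429 cells and 5.08, 5.33 and 5.30 in control cells at 48 h. All 4 groups were apart, with mir-429 highest at both times and the control arrays higher at 144 h than at 48 h. Its effect changed by -2.04 ± 0.19 (adjusted p = 1.81e-06), with 0.89 at 144 h and 2.92 at 48 h. At 144 h the mir-429 arrays gave SPINT2, a membrane inhibitor of serine proteases, values of 6.48, 6.16 and 6.15 and the control arrays 5.35, 5.36 and 5.47, and at 48 h the mir-429 arrays gave 7.38, 8.43 and 8.39 and the control arrays 5.28, 4.56 and 4.77. The groups did not overlap, and mir-429 replicate 1 at 48 h was below the other two. The effect was 0.87 at 144 h and 3.20 at 48 h, a change of -2.33 ± 0.32 (adjusted p = 0.000131). For MAP7, a microtubule-binding protein of epithelia, the 144 h values were 5.95, 6.23 and 5.94 with mir-429 and 5.02, 5.04 and 4.96 with control, and the 48 h values were 7.60, 7.86 and 7.71 with mir-429 and 5.14, 4.87 and 3.80 with control. Control replicate 3 at 48 h was the lowest array, and the arms were apart at both times. This gave effects of 1.03 at 144 h and 3.12 at 48 h and a change of -2.09 ± 0.32 (adjusted p = 0.000432).

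PATJ, a scaffold of tight junctions, was below the array median in control cells at 48 h. PATJ read 5.62, 5.57 and 5.87 in mir-429 cells and 4.88, 5.02 and 5.10 in control cells at 144 h, and 6.19, 6.05 and 6.09 in mir-429 cells and 4.27, 4.0 and 4.13 in control cells at 48 h. Its arms were apart at both times. With values below the array median raised to it, the change of PATJ was -1.21 or lower (adjusted p = 0.000208), with an effect of 0.69 at 144 h and at least 1.90 at 48 h. Its fitted change was -1.29, and -0.75 with averaged probe sets. CDS1, an enzyme of phospholipid synthesis, was below the array median in control cells at both times, with effects of at least 1.75 at 144 h and at least 2.83 at 48 h, and thus no bound on its change. Both CDS1 effects are lower limits.

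The remaining downward members were DSP, PKP3, CGN, MYO5B and GRHL1. DSP, the plakin of desmosomes, changed by -0.63, with 0.86 at 144 h and 1.49 at 48 h. The desmosomal PKP3 changed by -1.17 and the tight junction protein CGN by -1.33. The transport motor MYO5B changed by -1.35, with -0.07 at 144 h. For the transcription factor GRHL1, dim in 3 of the 4 groups, the change of -1.62 was -0.34 and not called after raising (adjusted p = 0.202). The cytoskeletal linker EPPK1 and the claudin CLDN1 changed upward, by 1.34 and 0.64. EPPK1 stood at -0.47 at 144 h and -1.80 at 48 h.

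ZEB1 is known to bind E-box sequences in promoters of epithelial genes, so promoters of the downward members were read for CACCTG and for CAGGTG, its letters on the other strand. RefSeq promoters (GRCh38.p14, 250 bases before to 50 after the start) were at hand for 7 of the 10 genes, and 5 held the motif (71.4%), namely CDS1, DSP, MAP7, MYO5B and PATJ, while CGN and GRHL1 did not. It was present in 20.6% of all 27305 promoters and in 18.2% of the 10441 that belong to genes tested. Promoters of ESRP1, SPINT2 and PKP3 were not at hand. The genes read were chosen by their change, and promoters of epithelial genes without a change were not read. A link between the motif and the change was therefore not tested. A match describes letters only. MAP7 and PATJ are shown, 5' to 3' along the gene, with each motif in capitals, at chr6:136550373-136550672 (minus strand) and chr1:61742230-61742529 (plus strand).

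MAP7 promoter: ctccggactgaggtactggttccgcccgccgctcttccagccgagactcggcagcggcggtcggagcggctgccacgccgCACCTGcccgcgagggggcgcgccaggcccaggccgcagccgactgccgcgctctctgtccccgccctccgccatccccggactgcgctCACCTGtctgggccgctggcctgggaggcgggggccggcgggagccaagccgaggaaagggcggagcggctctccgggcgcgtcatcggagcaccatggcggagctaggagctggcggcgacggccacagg

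PATJ promoter: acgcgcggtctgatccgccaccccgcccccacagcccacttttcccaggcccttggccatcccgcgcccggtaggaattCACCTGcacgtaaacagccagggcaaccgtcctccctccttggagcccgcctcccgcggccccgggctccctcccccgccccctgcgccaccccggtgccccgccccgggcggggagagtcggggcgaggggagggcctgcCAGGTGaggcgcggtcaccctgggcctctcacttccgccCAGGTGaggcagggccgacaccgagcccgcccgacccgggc

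Counted from the start of the gene, the motifs of MAP7 began at -170 and -81, and those of PATJ at -171, -30 and 10.

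Mesenchymal genes had 8 upward and 2 downward members of 43 tested (18.6% and 4.65%, beside 3.84% and 5.62% of all genes), with a median change of 0.13. Beside FN1, LOX and ZEB1, the upward members were the matrix glycoprotein TNC (1.15), the fibronectin receptor subunit ITGA5 (0.86), the protease FAP (0.83), the BMP antagonist GREM1 (0.82) and the collagen chain COL5A2 (0.82). The 3 bright probe sets of TNC ranged between -0.01 and 1.56. The collagen cross-linking enzyme LOXL2 (-0.56) and the microfibril protein FBN1 (-0.66) changed downward. Vimentin (VIM), an intermediate filament, was at 0.17 ± 0.15 (adjusted p = 0.547), and at -0.05 with the 3' minus 5' covariate. N-cadherin (CDH2) was at -0.19 ± 0.13 (adjusted p = 0.395). Neither marker passed the threshold at 144 h or at 48 h.

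Of 54 actin and motility genes tested, 4 changed upward and 3 downward (7.41% and 5.56%, beside 3.84% and 5.62% of all genes), with a median of 0.07. The downward share was near that of all genes. The formin DIAPH2 (0.52) joined WIPF1, CFL2 and MSN upward, and the membrane linker RDX (-0.77) and the kinase LIMK2 (-0.94) changed downward. ARPC4, a subunit of the actin-nucleating Arp2/3 complex, read 11.51, 11.40 and 11.58 in mir-429 cells and 11.44, 11.29 and 11.39 in control cells at 144 h, and 10.27, 10.75 and 10.61 in mir-429 cells and 8.90, 8.62 and 9.45 in control cells at 48 h. Control arrays at 48 h were lowest, and the arms overlapped at 144 h. Its effect changed by -1.44 ± 0.23 (adjusted p = 0.000654), with 0.12 at 144 h and 1.56 at 48 h. Averaged over probe sets, the change was -0.88 for ARPC4 and -0.46 for LIMK2.

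**Figure D3:**
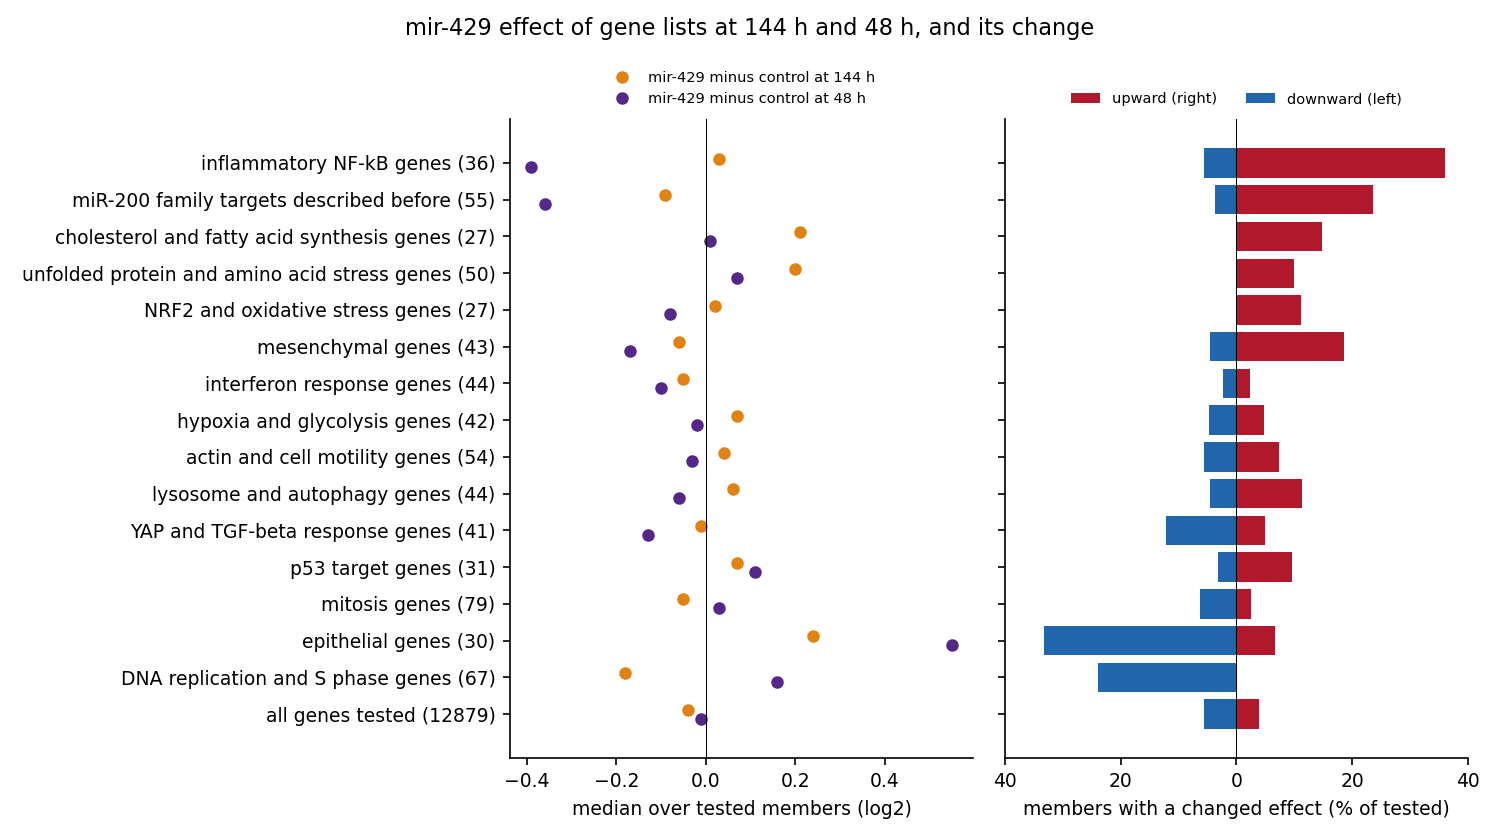
Median effect of mir-429 over the tested members of 15 gene lists and of all genes at 144 h (orange) and 48 h (purple), in log2 (left), and the percent of tested members with an upward (right of 0) or downward (left of 0) change (right). Inflammatory genes and miR-200 targets had the largest upward shares, 36.1% and 23.6%, and epithelial and DNA replication genes the largest downward shares, 33.3% and 23.9%. The epithelial share covers only the 30 of 55 genes bright enough to test, and genes could enter that test through mir-429 arrays alone.

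Inflammatory genes under NF-kB, the transcription factor that drives cytokines and chemokines, held several of the largest upward changes. Of 36 tested, 13 changed upward and 2 downward (36.1% and 5.56%, beside 3.84% and 5.62% of all genes), and the median change was 0.60. The median effect was 0.03 at 144 h and -0.39 at 48 h. MMP1, the interstitial collagenase, had the largest upward change of all genes that met the rule for naming. For MMP1 the 144 h values were 8.84, 8.58 and 8.63 with mir-429 and 6.70, 6.70 and 6.39 with control, and the 48 h values were 4.86, 5.07 and 4.21 with mir-429 and 6.74, 6.70 and 7.17 with control. The mir-429 arrays were the highest of the 12 at 144 h and the lowest at 48 h, and the control arrays of both times met at 6.70. The effect was 2.08 at 144 h and -2.16 at 48 h, a change of 4.24 ± 0.25 (adjusted p = 1.73e-08). Within mir-429 cells MMP1 differed by 3.96 between 144 and 48 h, and within control cells by -0.28.

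IL1B, the cytokine interleukin-1 beta, read 9.84, 9.66 and 9.73 in mir-429 cells and 8.56, 8.56 and 8.25 in control cells at 144 h, and 6.73, 6.36 and 6.81 in mir-429 cells and 7.93, 8.22 and 8.24 in control cells at 48 h. All 4 groups were apart, and the order of the arms turned round between the times. With effects of 1.28 at 144 h and -1.50 at 48 h, IL1B changed by 2.78 ± 0.18 (adjusted p = 3.58e-08). Its relative IL1A was at 1.12 at 144 h and 0.26 at 48 h, a change of 0.86 ± 0.22 (adjusted p = 0.0197). The survival gene BCL2A1 was lowest in mir-429 cells at 48 h. At 144 h the mir-429 arrays gave BCL2A1 values of 9.40, 9.29 and 9.30 and the control arrays 9.50, 9.47 and 9.15, and at 48 h the mir-429 arrays gave 7.48, 7.24 and 7.40 and the control arrays 8.86, 9.56 and 9.22. The arms overlapped at 144 h and were apart at 48 h. The effect was -0.04 at 144 h and -1.84 at 48 h, a change of 1.80 ± 0.26 (adjusted p = 0.000288).

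The neutrophil-attracting chemokines moved with the control arm. CXCL8 read 9.10, 8.90 and 8.71 in mir-429 cells and 8.56, 8.62 and 8.68 in control cells at 144 h, and 8.26, 8.39 and 8.26 in mir-429 cells and 11.31, 11.64 and 11.36 in control cells at 48 h. Control arrays at 48 h stood far above the other 9, which lay between 8.26 and 9.10. This gave effects of 0.28 at 144 h and -3.13 at 48 h and a change of 3.42 ± 0.22 (adjusted p = 3.46e-08). Between 144 and 48 h CXCL8 differed by 0.60 in mir-429 cells and by -2.82 in control cells. At 144 h the mir-429 arrays gave CXCL1 values of 9.55, 9.11 and 9.0 and the control arrays 9.49, 9.55 and 9.68, and at 48 h the mir-429 arrays gave 9.08, 9.14 and 9.38 and the control arrays 11.54, 11.67 and 11.51. Again the control arrays at 48 h were highest, and the arms overlapped at 144 h. With effects of -0.35 at 144 h and -2.37 at 48 h, CXCL1 changed by 2.01 ± 0.17 (adjusted p = 8.78e-07). CXCL3 and CXCL2 changed by 2.46 ± 0.23 and 2.12 ± 0.23, with control differences between the times of -2.01 and -1.44. With its probe sets averaged CXCL2 changed by 1.09. These CXCL genes are close paralogs, and how far their probe sets share signal was not tested.

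The cytokine IL6 showed both a lower effect at 48 h and a higher control level then. For IL6 the 144 h values were 6.03, 6.29 and 6.30 with mir-429 and 6.57, 6.48 and 6.47 with control, and the 48 h values were 6.73, 6.64 and 6.82 with mir-429 and 7.96, 8.53 and 8.44 with control. The mir-429 arrays lay below the control arrays at both times. The effect was -0.30 at 144 h and -1.58 at 48 h, a change of 1.28 ± 0.25 (adjusted p = 0.00256). The growth factor CSF1 (1.32), the inhibitors NFKBIE (1.05) and NFKBIA (0.98) and the adaptor TRAF1 (1.45 or more after raising 2 dim groups) completed the upward members. TNFAIP8, an apoptosis regulator, and the cytokine LIF changed downward, by -0.71 and -0.74.

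**Figure D4:**
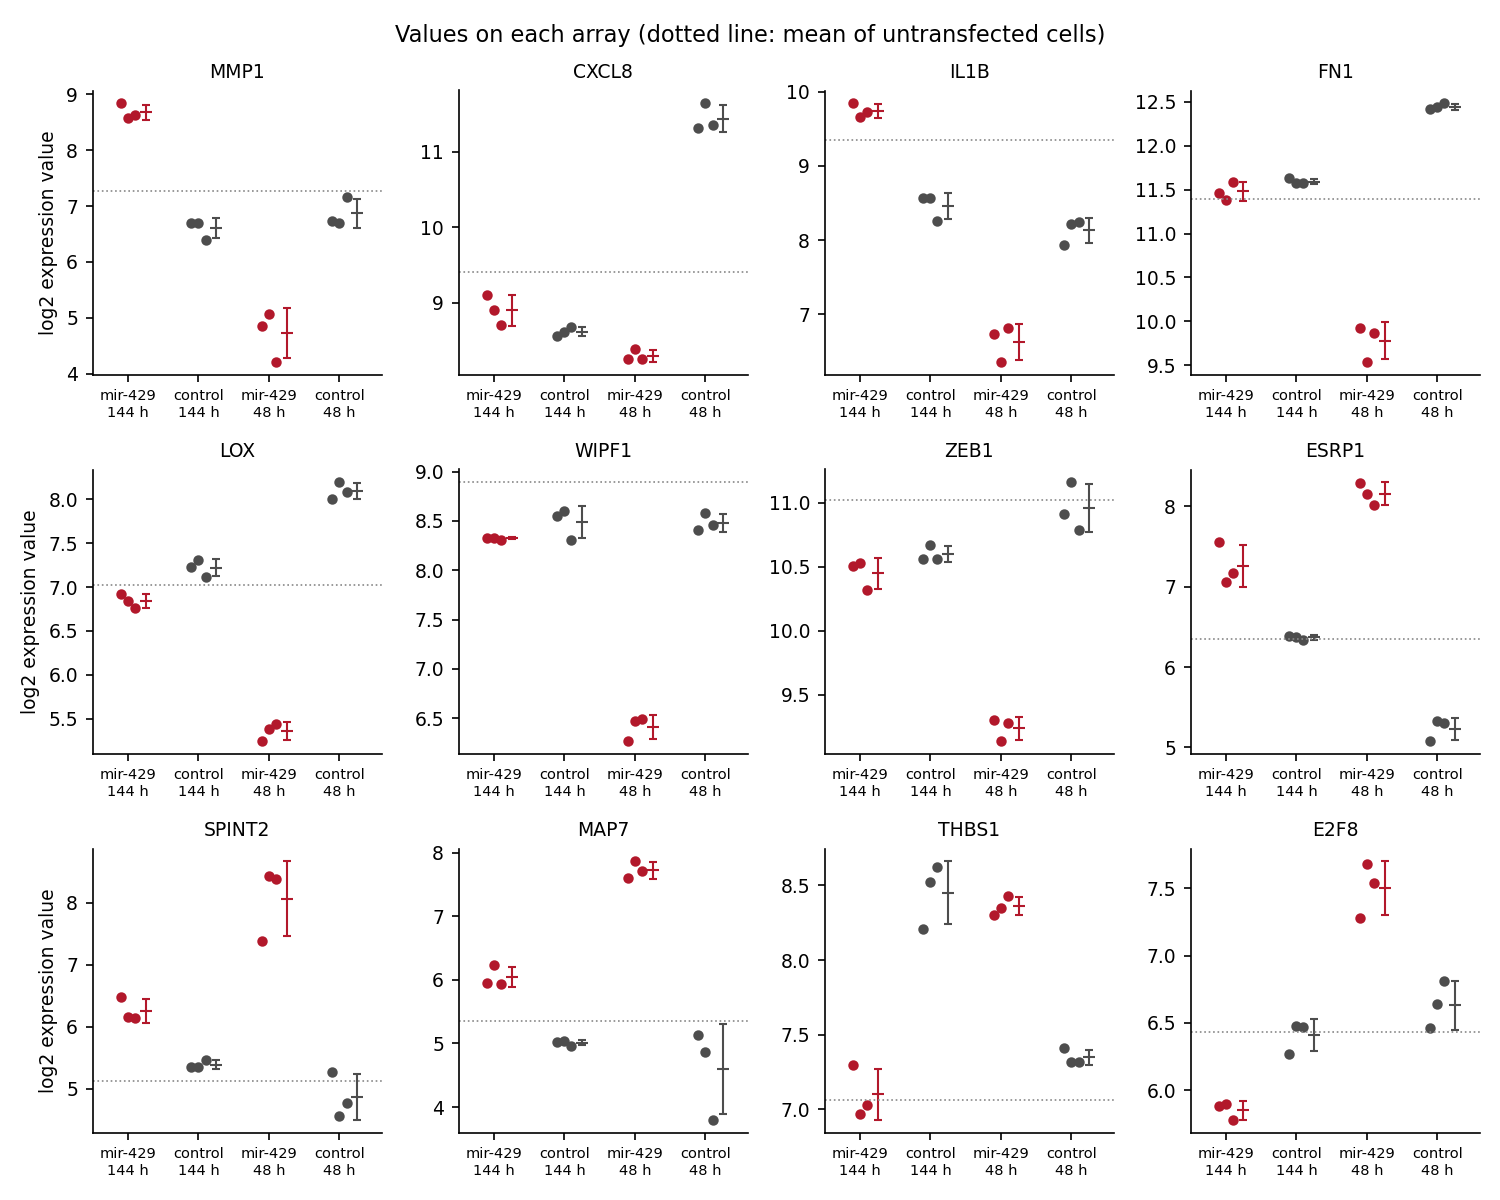
Log2 expression on each of the 12 arrays for 12 genes, mir-429 in red and control in dark grey, 144 h before 48 h, with mean and SD (n = 3) beside the points and the mean of untransfected cells as a dotted line; the axes do not start at 0. MMP1, IL1B, FN1, LOX, WIPF1 and ZEB1 are lowest in mir-429 cells at 48 h, CXCL8 is highest in control cells at 48 h, and THBS1 is low in mir-429 cells at 144 h and in control cells at 48 h.

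Several genes had a larger effect at 144 h than at 48 h. GPR65, a receptor that senses protons, was below the array median in control cells at 144 h. GPR65 read 8.56, 8.16 and 8.22 in mir-429 cells and 4.13, 3.96 and 3.84 in control cells at 144 h, and 6.57, 5.94 and 5.95 in mir-429 cells and 4.92, 4.58 and 4.91 in control cells at 48 h. Mir-429 arrays were above control arrays at both times and highest at 144 h. With dim values raised, its change was at least 2.73 (adjusted p = 1.69e-07), with at least 4.08 at 144 h and 1.35 at 48 h. For FGFBP1, a carrier that releases fibroblast growth factors, the 144 h values were 11.50, 11.29 and 11.29 with mir-429 and 8.96, 8.42 and 8.33 with control, and the 48 h values were 10.27, 9.60 and 10.14 with mir-429 and 8.42, 8.35 and 8.43 with control. The control arrays of the times overlapped, and the mir-429 arrays lay above them at both times. FGFBP1 changed its effect by 1.19 ± 0.24 (adjusted p = 0.00321), at 2.79 at 144 h and 1.60 at 48 h.

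Genes of the YAP and TGF-beta response, which report contact and growth factor signals, had 5 downward and 2 upward members of 41 tested (12.2% and 4.88%, beside 5.62% and 3.84% of all genes), with a median of -0.02. THBS1, the matrix protein thrombospondin-1, read 7.30, 6.97 and 7.03 in mir-429 cells and 8.21, 8.52 and 8.62 in control cells at 144 h, and 8.30, 8.35 and 8.43 in mir-429 cells and 7.41, 7.32 and 7.32 in control cells at 48 h. Mir-429 arrays were below control arrays at 144 h and above them at 48 h. The effect was -1.35 at 144 h and 1.01 at 48 h, a change of -2.35 ± 0.18 (adjusted p = 1.74e-07), which was -1.28 with the probe sets of THBS1 averaged. With mir-429 at 144 h the arrays gave IGFBP3, which binds insulin-like growth factors, values of 8.61, 9.17 and 8.93 and the control arrays 9.41, 9.92 and 10.54, and at 48 h the mir-429 arrays gave 10.31, 10.47 and 10.42 and the control arrays 9.75, 9.60 and 9.73. The arms were apart at both times and in opposite order. Its effect changed by -1.75 ± 0.27 (adjusted p = 0.000468), with -1.05 at 144 h and 0.71 at 48 h. TGFB2, a ligand of the pathway, changed by -1.82 (-0.83 at 144 h and 0.99 at 48 h), the inhibitor PMEPA1 by -0.96 and the inhibitor SMAD7 by -0.68. For BHLHE40, a repressor of the circadian and hypoxic programmes, the 144 h values were 9.54, 9.62 and 9.40 with mir-429 and 8.81, 8.86 and 8.53 with control, and the 48 h values were 9.32, 9.24 and 9.34 with mir-429 and 9.59, 9.98 and 10.0 with control. Here mir-429 arrays were above control arrays at 144 h and below them at 48 h. This gave effects of 0.79 at 144 h and -0.55 at 48 h and a change of 1.34 ± 0.20 (adjusted p = 0.000289). GADD45B, also counted among p53 targets, changed by 0.70 ± 0.18, which did not pass on leaving out mir-429 144 h replicate 2 (0.60, adjusted p = 0.0542).

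Among DNA replication genes the changes were downward. Of 67 tested, 16 changed downward and 0 upward (23.9%, beside 5.62% of all genes for downward). A value below 0 was found for 57 of the 67, beside 6937 of all 12879 genes, and the median change was -0.26. The median effect was -0.18 at 144 h and 0.16 at 48 h, with 11 members lower and 0 higher at 144 h (4.37% and 1.48% of all genes) and 11 higher and 4 lower at 48 h (9.32% and 11.3%). With the 3' minus 5' covariate 7 changed downward and 0 upward, and the median was -0.30. E2F8, an E2F factor of S phase, read 5.88, 5.90 and 5.78 in mir-429 cells and 6.27, 6.48 and 6.47 in control cells at 144 h, and 7.28, 7.68 and 7.54 in mir-429 cells and 6.46, 6.64 and 6.81 in control cells at 48 h. Mir-429 arrays were lowest at 144 h and highest at 48 h. The effect was -0.56 at 144 h and 0.87 at 48 h, a change of -1.43 ± 0.18 (adjusted p = 5.12e-05). At 144 h the mir-429 arrays gave MCM10, which helps to open replication origins, values of 8.49, 8.59 and 8.60 and the control arrays 9.10, 9.42 and 9.35, and at 48 h the mir-429 arrays gave 9.44, 9.28 and 9.34 and the control arrays 9.17, 8.99 and 8.92. The arms were apart at both times, in opposite order. This gave effects of -0.73 at 144 h and 0.33 at 48 h and a change of -1.06 ± 0.14 (adjusted p = 0.000103). The 3 probe sets of MCM10 ranged between -1.06 and -0.26, and their average gave -0.63.

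For E2F2, an activator of S phase genes, the 144 h values were 7.21, 6.96 and 7.34 with mir-429 and 8.50, 8.10 and 8.32 with control, and the 48 h values were 6.0, 6.0 and 6.47 with mir-429 and 5.99, 5.86 and 6.15 with control. Its arms overlapped at 48 h and were apart at 144 h, where control cells were higher. E2F2 changed its effect by -1.29 ± 0.21 (adjusted p = 0.000733), at -1.14 at 144 h and 0.16 at 48 h. The licensing factor CDT1 changed by -0.93, the fork protector TIPIN by -0.85, the polymerase subunit POLE2 by -0.66, the repair genes BRCA1 by -0.64 and MSH6 by -0.61, and the single-strand binding RPA2 by -0.63. MSH6 was not called when its probe sets were averaged (-0.32, adjusted p = 0.365). The origin subunit ORC5, the primase PRIM1, the polymerase POLA1, the histone mRNA binding SLBP, the helicase factors CDC45 and GINS2 and the phosphatase CDC25A changed by -0.60 to -0.44.

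Mitosis genes had 5 downward and 2 upward members of 79 tested (6.33% and 2.53%, close to the shares of all genes), and a median of -0.08. Values below 0 were also common in this list, at 57 of the 79, beside 6937 of all 12879 genes. SGO1, which protects the cohesion of chromosomes, read 5.75, 5.79 and 5.82 in mir-429 cells and 6.66, 6.96 and 6.49 in control cells at 144 h, and 7.26, 7.30 and 7.50 in mir-429 cells and 6.58, 6.77 and 6.74 in control cells at 48 h. Mir-429 arrays were lowest at 144 h and highest at 48 h. The effect was -0.92 at 144 h and 0.66 at 48 h, a change of -1.58 ± 0.20 (adjusted p = 8.08e-05). The other probe set of SGO1 gave -0.17, and the average of both -0.87. The motility receptor HMMR (-0.59) and the kinetochore genes SPC24 (-0.63) and ZWINT (-0.45) changed downward, and the centromere histone CENPA (0.74) and the proliferation antigen MKI67 (0.51) upward. SPC24 was not called with the 3' minus 5' covariate (-0.51, adjusted p = 0.129). CDCA3, a cell cycle regulator, at -0.49, lost its call under 8 of 23 settings, among them leaving out mir-429 144 h replicate 1 (adjusted p = 0.0608), mir-429 144 h replicate 3 (0.0538), control 144 h replicate 2 (0.0634) or mir-429 48 h replicate 3 (0.0529).

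Interferon response genes had 1 upward and 1 downward member of 44 tested (2.27% each, below the 3.84% and 5.62% of all genes), with a median of 0.13. With mir-429 at 144 h the arrays gave CD274, the immune checkpoint ligand PD-L1, values of 7.79, 7.44 and 7.62 and the control arrays 7.52, 7.35 and 7.03, and at 48 h the mir-429 arrays gave 8.94, 8.73 and 8.59 and the control arrays 5.89, 7.0 and 6.52. The arms overlapped at 144 h, and at 48 h the mir-429 arrays were far above the control arrays. The effect was 0.32 at 144 h and 2.28 at 48 h, a change of -1.96 ± 0.29 (adjusted p = 0.000255). The other probe set of CD274 gave -0.58, and the average of both -1.27. SAMD9L, an antiviral growth inhibitor, at 0.79 ± 0.21 (adjusted p = 0.0227), lost its call under 6 of 23 settings, among them leaving out mir-429 144 h replicate 2 (0.0593), mir-429 144 h replicate 3 (0.0562), control 144 h replicate 2 (0.0525) or mir-429 48 h replicate 1 (0.0562).

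Genes of cholesterol and fatty acid synthesis had 4 upward and 0 downward members of 27 tested (14.8% and 0%, beside 3.84% and 5.62% of all genes), with a median change of 0.28 and a median effect of 0.21 at 144 h and 0.01 at 48 h. With the 3' minus 5' covariate the median was 0.09 and 3 changed upward. INSIG1, the sterol sensor of the endoplasmic reticulum, read 11.77, 11.79 and 11.53 in mir-429 cells and 11.30, 11.24 and 11.13 in control cells at 144 h, and 10.68, 10.47 and 10.83 in mir-429 cells and 11.17, 11.57 and 11.18 in control cells at 48 h. Mir-429 arrays were above control arrays at 144 h and below them at 48 h. INSIG1 changed its effect by 1.12 ± 0.19 (adjusted p = 0.000894), at 0.47 at 144 h and -0.64 at 48 h. The acetate-activating ACSS2 changed by 0.93 ± 0.18 and the sterol oxidase MSMO1 by 0.83 ± 0.16. The regulator SREBF2, at 0.79, was not called with averaged probe sets (0.29, adjusted p = 0.457) or with the covariate (0.75, adjusted p = 0.0533).

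Genes of the unfolded protein and amino acid stress response had 5 upward and 0 downward members of 50 tested (10% and 0%, beside 3.84% and 5.62% of all genes), with a median of 0.16. For DDIT3, the stress transcription factor CHOP, the 144 h values were 8.24, 8.11 and 8.12 with mir-429 and 7.20, 7.45 and 7.61 with control, and the 48 h values were 7.28, 7.47 and 7.42 with mir-429 and 7.54, 7.44 and 7.49 with control. Mir-429 arrays were above control arrays at 144 h, and the arms overlapped at 48 h. The effect was 0.74 at 144 h and -0.10 at 48 h, a change of 0.84 ± 0.22 (adjusted p = 0.0205). Leaving out control 144 h replicate 1 ended the DDIT3 call (0.73, adjusted p = 0.0613). NUPR1, a stress-induced chromatin protein, changed by 1.41 ± 0.29 and the transcription factor CEBPB by 0.82. HERPUD1, of the degradation machinery, at 0.86, was not called with averaged probe sets (0.42, adjusted p = 0.119) or the covariate (0.64, adjusted p = 0.0582). The sensor ATF6, at 0.61, was not called with averaged probe sets (0.19, adjusted p = 0.498) or on leaving out mir-429 144 h replicate 2 (0.51, adjusted p = 0.0516).

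Lysosome and autophagy genes had 5 upward and 2 downward members of 44 tested (11.4% and 4.55%, beside 3.84% and 5.62% of all genes), with a median of 0.06. OSTM1, the partner of a lysosomal chloride channel, read 9.34, 9.05 and 9.26 in mir-429 cells and 9.78, 9.91 and 9.95 in control cells at 144 h, and 7.48, 7.53 and 7.37 in mir-429 cells and 10.18, 10.35 and 10.18 in control cells at 48 h. The mir-429 arrays were below control arrays at both times, and lowest at 48 h. Its effect changed by 2.12 ± 0.22 (adjusted p = 6.56e-06), with -0.66 at 144 h and -2.78 at 48 h. With mir-429 at 144 h the arrays gave NPC1, which exports cholesterol out of lysosomes, values of 11.17, 11.11 and 10.98 and the control arrays 10.56, 10.47 and 10.37, and at 48 h the mir-429 arrays gave 9.56, 9.37 and 9.45 and the control arrays 9.73, 10.0 and 9.88. Mir-429 arrays were above control arrays at 144 h and below them at 48 h. The effect was 0.62 at 144 h and -0.41 at 48 h, a change of 1.03 ± 0.15 (adjusted p = 0.000265). The protease TPP1 changed by 0.86, and with averaged probe sets neither TPP1 (0.32, adjusted p = 0.312) nor NPC1 (0.41, adjusted p = 0.183) was called. The cargo receptor SQSTM1 and the cathepsin CTSB changed upward, by 0.64 and 0.43, and the ceramidase ASAH1 and the transcription factor MITF downward, by -0.82 and -0.87 (ASAH1 by -0.53 with averaged probe sets).

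NRF2 and oxidative stress genes had 3 upward and 0 downward members of 27 tested (11.1% and 0%, beside 3.84% and 5.62% of all genes), with a median of 0.15. For HMOX1, the heme-degrading oxygenase, the 144 h values were 5.42, 5.81 and 6.02 with mir-429 and 6.36, 6.46 and 6.35 with control, and the 48 h values were 5.29, 4.86 and 4.63 with mir-429 and 7.47, 6.53 and 7.59 with control. The arms were apart at both times, with mir-429 arrays lower. The effect was -0.64 at 144 h and -2.27 at 48 h, a change of 1.63 ± 0.33 (adjusted p = 0.00403). The transcription factor MAFF changed by 0.53 ± 0.12. AKR1C1, an aldo-keto reductase with near-identical relatives that its probe sets may also read, was at 0.73, and 2 of its 4 bright probe sets had the opposite sign. With averaged probe sets AKR1C1 was not called (0.29, adjusted p = 0.328).

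Hypoxia and glycolysis genes had 2 upward and 2 downward members of 42 tested (4.76% each) and a median of 0.09. The p53 targets had 3 upward and 1 downward of 31 (9.68% and 3.23%) and a median of -0.04. Over all genes these shares were 3.84% upward and 5.62% downward. NDRG1, a stress-responsive gene of hypoxia, changed by 1.07 ± 0.19, with 0.63 at 144 h and -0.44 at 48 h. The hexokinase HK2, at -0.75, was at -0.04 with averaged probe sets (adjusted p = 0.911) and did not pass on leaving out mir-429 144 h replicate 3 (-0.67, adjusted p = 0.0508). The glucose transporter SLC2A1 (-0.43, and -0.68 with averaged probe sets) lost its call under 11 of 23 settings. They were quantile (adjusted p = 0.053) and cyclic loess scaling (0.0518), no filter on dim genes (0.0724), the 12 arrays alone (0.0585), the covariate (0.0778), and leaving out mir-429 144 h replicate 2, control 144 h replicates 1 or 2, mir-429 48 h replicates 2 or 3, or control 48 h replicate 2 (0.052 to 0.0719). The collagen hydroxylase PLOD2 (0.52) lost its call under 13 of 23 settings. Among them were no filter on dim genes (adjusted p = 0.0755), the 12 arrays alone (0.101) and the covariate (0.0525). The rest were leaving out any of the 12 arrays but mir-429 144 h replicate 3 and control 48 h replicate 3 (0.0535 to 0.0908). The death gene PMAIP1 (0.63) also lost its call under 13 of 23 settings. Among them were no filter on dim genes (adjusted p = 0.0774), the 12 arrays alone (0.0526), the covariate (0.0989) and weighting of the arrays (0.0838). The rest were leaving out any array but replicate 3 of control 144 h, mir-429 48 h and control 48 h (0.0523 to 0.111). SESN1, an inhibitor of growth signalling, changed by 0.93 ± 0.16, and the decoy receptor TNFRSF10D by -0.65, a call lost with the covariate (-0.44, adjusted p = 0.128) and with averaged probe sets (-0.13, adjusted p = 0.742).

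Outside the lists, the largest upward changes that met the rule for naming, beside GPR65, were in ANK3, which anchors membrane proteins to the cytoskeleton (2.11 ± 0.19), and SCG5, a chaperone of secretory cells (2.06 ± 0.15). Both had effects near 0 at 144 h (-0.05 and 0.23) and negative ones at 48 h (-2.16 and -1.83). Averaged over its probe sets, ANK3 changed by 1.17. Among large downward changes DCLK1, a microtubule-associated kinase, read 8.83, 8.62 and 8.57 in mir-429 cells and 8.83, 8.91 and 8.83 in control cells at 144 h, and 9.92, 9.92 and 10.05 in mir-429 cells and 7.96, 8.30 and 7.89 in control cells at 48 h. The arms met at 144 h and were apart at 48 h. The effect was -0.18 at 144 h and 1.91 at 48 h, a change of -2.10 ± 0.17 (adjusted p = 5.96e-07). The other DCLK1 probe set above the array median gave -0.71, and the average over all its probe sets -0.91. TMEM200A, a membrane protein, changed by -2.09 ± 0.20, with 0.18 at 144 h and 2.28 at 48 h. At 144 h the mir-429 arrays gave SPOPL, an adaptor of a ubiquitin ligase, values of 7.36, 7.09 and 7.42 and the control arrays 7.65, 7.46 and 7.91, and at 48 h the mir-429 arrays gave 8.11, 8.02 and 7.76 and the control arrays 5.44, 6.21 and 5.71. Control arrays at 48 h lay below the other 9, and mir-429 was below control at 144 h. SPOPL changed its effect by -2.56 ± 0.30 (adjusted p = 2.44e-05), at -0.38 at 144 h and 2.18 at 48 h. Between 144 and 48 h SPOPL differed by -0.67 in mir-429 cells and by 1.89 in control cells.

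Other large downward changes rest on groups below the array median. With dim values raised, ZNF165, a zinc finger gene, changed by -2.66 or lower, the glycosyltransferase B3GALT5 by -2.09 or lower and the carboxypeptidase CPA4 by -1.52 or lower. For ZNF165 control cells at 48 h were dim, for B3GALT5 mir-429 cells at 144 h, and for CPA4 both of these groups. ZBED2, a transcription factor, and COL8A1, a collagen chain, were dim in control cells at both times. Each was above the array median on 9 of the 21 arrays, all of them mir-429 arrays. The filter on dim genes thus let both in through the arm in which they were high. ZBED2 had an effect of at least 1.01 at 144 h and at least 3.55 at 48 h, and COL8A1 one of at least 0.25 and at least 2.18. For CST6, a cystatin, mir-429 cells at 48 h were above the array medians, by at least 1.99 over control, and the means of the other 3 groups of the contrast were below them, so that its effect at 144 h could not be measured. With its 2 probe sets averaged the fitted change of CST6 was -1.59.

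The 24 h arrays are not part of the contrast, and genes called on them were followed in it. The 24 h calls shared with the contrast the fitted spread of each gene and the filter on dim genes. A gene of small spread could pass more readily in both, so the shares below are not independent of the contrast. Of the 1937 genes higher with mir-429 at 24 h (15.0% of all), 404 changed downward between 48 and 144 h (20.9%, beside 5.62% of all genes) and 7 upward (0.361%, beside 3.84%), with a median change of -0.29. Of the 1488 genes lower then (11.6%), 270 changed upward (18.1%) and 11 downward (0.739%), with a median of 0.24. The first group held 55.8% of all downward changes and the second 54.5% of all upward ones. The median over all genes was -0.03. Among the named genes, WIPF1 had effects of -2.13, -2.08 and -0.17 at 24, 48 and 144 h, and MAP7 2.16, 3.12 and 1.03. For IL6 the effects at these times were -0.03, -1.58 and -0.30, and for EPPK1 0.48, -1.80 and -0.47. The 24 h arms also differed in 3' minus 5' signal. It was 2.5356, 2.8343 and 3.2483 on the mir-429 arrays and 4.0036, 4.2107 and 4.427 on the control arrays. Mir-429 was thus lower at 24 h, without overlap, whereas its mean was higher than that of control at 48 h. With this signal as a covariate 355 genes were called higher and 259 lower at 24 h, beside 1937 and 1488 without it. Their median changes were -0.70 and 0.55. With the covariate 42.8% of the 355 changed downward and 34% of the 259 upward. They then held 34% of all downward changes and 25.5% of all upward ones, beside 55.8% and 54.5% without it. The part of the signal in the 24 h calls was not tested further.

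**Figure D5:**
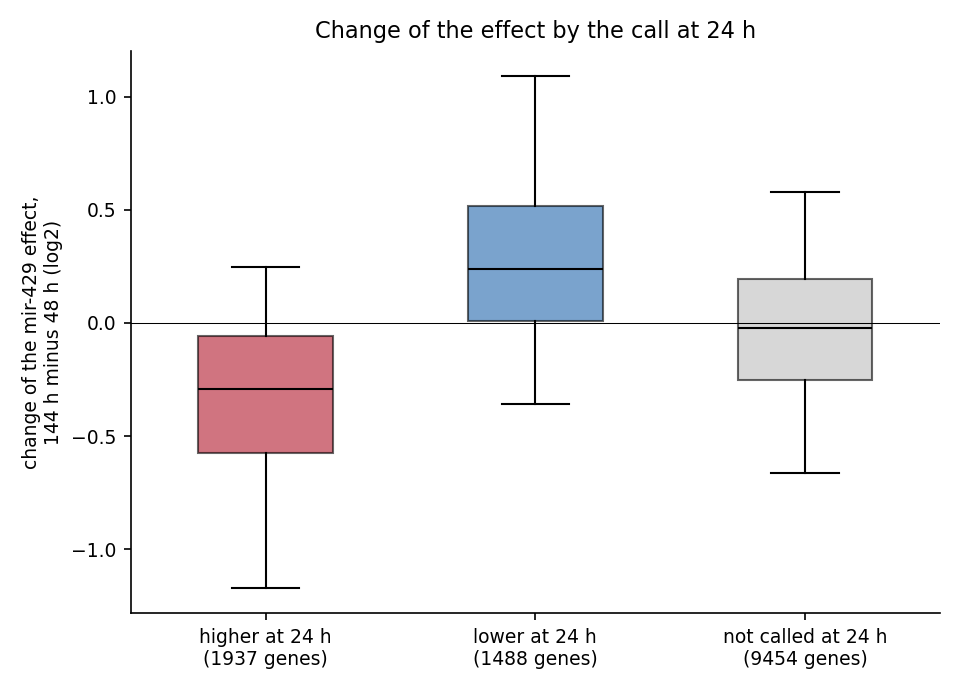
Change of the mir-429 effect (144 h minus 48 h, log2) for genes higher at 24 h, lower at 24 h and not called at 24 h. Boxes show the median and quartiles, whiskers the 5th and 95th percentiles over genes; the medians are -0.29 for 1937 higher and 0.24 for 1488 lower genes.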

How the data were processed

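Expression was measured in HEY cells on 21 arrays, 3 in each of 7 groups, read from the sample titles. Each probe set has a deposited log2 value that the authors made with RMA, per the submitters' processing notes, which give no version. The values ran between 0.75 and 14.97, with array medians of 3.95 to 4.29, and were not scaled further. Of 54675 probe sets, GEO's platform annotation gave 1 symbol to 41097, several to 1801 and 11777 had none. RefSeq GRCh38.p14 supplied current symbols by Entrez identifier (99.9% matched). Each gene was read from its brightest probe set by mean value, and 12879 of 19775 genes were tested, those above the array median on at least 3 arrays.

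A model of 7 group means over all 21 arrays was fitted in R 4.3.3 with limma 3.58.1 (lmFit, eBayes; residual df 14, prior df 3.93). They were two-sided, with Benjamini-Hochberg adjustment over the 12879 genes at 0.05. Changes are given ± SE, with n = 3 arrays per group; the SE pools the spread over all groups, which was not equal. Where a group mean lay below its array medians, values were raised to the array median, and a change is given as a bound where that fixes its side. There is no read depth on arrays; precision is set by their number.

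Named genes were the 12 largest upward and downward changes that passed the threshold, with and without raised values, and whose 9 array differences at 144 h did not overlap the 9 at 48 h. To these were added, from each list, at most 4 called members by rank of p, and ZEB1, ZEB2, CDH1, EPCAM, ESRP1, VIM, FN1, CDH2, CXCL8, FGFBP1 and GPR65. Other list members that passed were named after their values were seen. The members and gene lists were chosen with earlier results of these data known. On simulated data over 12879 genes the test of this change found 7.5% of 67 genes moved by 0.5 on the log2 scale, 58.2% of 67 moved by 1, and 100% of 66 moved by 2. There were 8 false calls of 118, and 0 calls where nothing was changed. The simulation drew independent normal noise with 1 SD per gene for all groups and no 3' minus 5' difference. Its changes were set only on the mir-429 144 h arrays and in a smaller share of genes than the 9.47% called in the data. The adjusted threshold depends on that share. In the data the median SD over genes was 0.108 for control at 144 h and 0.216 for control at 48 h. The shares found and the false calls of the simulation therefore need not be those of the data. Alternatives were other scalings, filters, probe set rules and variance models, a replicate block, a 3' minus 5' covariate, the 12 arrays alone and leaving out each array.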

Additional observations from a re-analysis of the deposited data

Results flagged for a closer look

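Each value here is the effect of mir-429 at 144 h minus its effect at 48 h (log2), and each is listed because the 2 times differed by a direct test of that difference (limma adjusted p under 0.05). In all 1219 genes differed. Among inflammatory genes the values were MMP1 (4.24), CXCL8 (3.42), IL1B (2.78), CXCL3 (2.46), CXCL2 (2.12) and CXCL1 (2.01). Among miR-200 targets, mesenchymal and actin genes they were FN1 (2.55), LOX (2.35), WIPF1 (1.91), PPM1F (1.66), ZEB1 (1.57), TNC (1.15), MSN (0.80), LIMK2 (-0.94) and ARPC4 (-1.44). Epithelial genes were at PATJ (-1.29), ESRP1 (-2.04), MAP7 (-2.09) and SPINT2 (-2.33). Replication and mitosis genes were at MSH6 (-0.61), MCM10 (-1.06), E2F2 (-1.29), E2F8 (-1.43), CDCA3 (-0.49), HMMR (-0.59), SPC24 (-0.63) and SGO1 (-1.58). Genes of the YAP and TGF-beta response and p53 targets were at BHLHE40 (1.34), GADD45B (0.70), PMEPA1 (-0.96), IGFBP3 (-1.75), THBS1 (-2.35), SESN1 (0.93), PMAIP1 (0.63) and TNFRSF10D (-0.65). Sterol and lysosome genes were at INSIG1 (1.12), ACSS2 (0.93), MSMO1 (0.83), SREBF2 (0.79), OSTM1 (2.12), NPC1 (1.03), TPP1 (0.86) and ASAH1 (-0.82). Stress, hypoxia and interferon genes were at HMOX1 (1.63), AKR1C1 (0.73), MAFF (0.53), NUPR1 (1.41), HERPUD1 (0.86), DDIT3 (0.84), ATF6 (0.61), NDRG1 (1.07), PLOD2 (0.52), SLC2A1 (-0.43), HK2 (-0.75), SAMD9L (0.79) and CD274 (-1.96). Outside the lists, GPR65 (2.99), ANK3 (2.11), SCG5 (2.06) and FGFBP1 (1.19) were upward and ZNF165 (-3.82), CST6 (-2.80), ZBED2 (-2.58), SPOPL (-2.56), COL8A1 (-2.53), B3GALT5 (-2.49), CPA4 (-2.22), DCLK1 (-2.10) and TMEM200A (-2.09) downward. The values of ZNF165, B3GALT5, CPA4, PATJ and GPR65 are as fitted, and their bounds and the dim groups of CST6, ZBED2 and COL8A1 are given above.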

How the results depend on the processing

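As deposited 1219 genes changed, and leaving out each array in turn gave 819 to 1484, the lowest without control 144 h replicate 2 and the highest without control 48 h replicate 2. With the 3' minus 5' signal as a covariate the count was 792, and the median changes of genes called at 24 h were -0.70 for higher and 0.55 for lower genes, over fewer genes called at 24 h. VIM was at -0.05 with that covariate, beside 0.17 without it; the cause was not tested. The 3' minus 5' signal of ACTB alone changed by -1.27 (exact permutation p = 0.06), and that of GAPDH alone by -1.29 (exact permutation p = 0.025). The other settings gave 920 (no filter on dim genes) to 1313 genes (values raised to the array median), and the fit of the 12 arrays alone gave 922, of which 860 were among the 1219. With the replicate number as a block the count was 1162; among the named genes the block changed 1 call, that of ZEB2 (0.79, adjusted p = 0.0398). No pairing by number was visible in the values. Same-numbered arrays of different groups correlated at a median of -0.033 (-0.165 to 0.203 over 18 pairs) and differently numbered ones at -0.018. With 3 arrays per group this cannot show that the cultures were unpaired. Averaging all probe sets of a gene changed 12 calls of named genes, 11 of them lost, and the covariate lost 9. Precision is limited by 3 arrays per group, by an unequal spread between groups and by the signal of dim genes over the array median.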
